A study of Mus musculus with 7 samples.

Results

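The nucleolar ribosome assembly genes described here are 54 genes chosen by name for their known roles in making ribosomes, of the 13697 named genes tested on the arrays. The list was proposed with differences between KO and control hearts of these same arrays in view, so its KO minus control values are given as a description and serve as support for nothing. Of the 54 genes, 53 had a probe that cleared background in 3 or more hearts of a group and were tested. The exception was Utp18, whose only probe was well above background on 1 of 3 KO arrays and on 0 of 4 control arrays.

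RNA was taken from the heart apex of male C57BL/6 mice, 1 heart per array, and hybridised to 1-colour Agilent arrays that all lay on 1 slide. The 3 KO hearts came from mice heterozygous for α-MHC mercremer, a tamoxifen-inducible Cre under a cardiomyocyte promoter, and homozygous for a floxed p38α (Mapk14) gene with exons 2 and 3 between loxP sites. The 4 control hearts came from mice with the same homozygous floxed gene and no Cre transgene. Every mouse, KO or control, was given hydroxytamoxifen (500 µg daily, 10 days) starting at 6 weeks of age, then angiotensin II at 1.5 mg/kg per day by osmotic mini pump for 48 hours before the hearts were taken at 3 months. No hearts without angiotensin II were analysed here, and Cre and the deletion cannot be told apart in the KO group. The floxed gene is deleted in cardiomyocytes, while the apex also holds fibroblasts, endothelial cells and leukocytes.

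Ribosomes are built in the nucleolus. RNA polymerase I copies the ribosomal DNA into a long precursor, small nucleolar ribonucleoproteins (snoRNPs) guide its methylation and pseudouridylation, and large sets of assembly factors fold and cut it into the small and the large subunit. In the adult heart ribosome production is best known as part of hypertrophic growth, in which cardiomyocytes enlarge and make more protein without dividing.

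Levels are log2 processed signals minus each array's 75th percentile, and every probe is compared only with itself across hearts. Each array had 46.0% to 49.7% of its 55681 probes above background. With 3 KO and 4 control arrays, precision is limited by their number. Mapk14 averaged 3.74 ± 0.028 (SD, n = 3) in KO hearts and 3.51 ± 0.11 (SD, n = 4) in control hearts and was not called, which checks nothing where a probe lies outside the floxed exons. The probe of Esr1, the receptor gene from which mercremer takes a domain, read -0.82, 0.07 and 4.5 in KO hearts 1 to 3 and was not well above background on any control array. Of 12 cardiomyocyte markers all 12 were measured, with Myh6 at 9.75 ± 0.15 (SD, n = 3) in KO hearts and 10.1 ± 0.21 (SD, n = 4) in control hearts. For the nucleolar genes KO heart 3 stood apart from the other KO hearts, so values are given heart by heart and the counts with and without it.

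Most of these genes were higher in KO hearts. In tissue RNA, a change in the number of cells of a type and a change in RNA per cell cannot be told apart. A gene is called here when its adjusted p in the limma fit across all 22344 features is under 0.05. Each gene is counted by its brightest kept probe, and the dimmer probe of Brix1, counted as higher, was itself called lower. Of the 53 tested genes 36 were called higher in KO and 0 lower, where 10.2% of all features were called higher, 15% lower and 25.2% in either direction. At an unadjusted p under 0.05 there were 39 higher and 0 lower. The median log2 difference over the 53 genes was 0.81, which is 1.75-fold, against -0.06 over all features, and 50 of the 53 differences were above 0. The largest was 2.88-fold, for the RNA helicase gene Ddx21. In 37 genes all 3 KO hearts lay above all 4 control hearts, as did 17.6% of all features, and in 1 gene, Ddx52, all lay below, as in 21.4%. Among named genes alone 28.3% were called, 12.3% higher and 15.9% lower, and the groups did not overlap with KO higher in 19.5% and with KO lower in 22.7%. The list was drawn from this same contrast, so nothing is read from its counts against these shares.

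The steps of assembly differed in how many members were called, and these differences between steps were not tested. Of the RNA polymerase I group 1 of 5 was called higher, with a median log2 difference of 0.25. Of the snoRNP group 7 of 8 were called higher (median 1.21), and of the general nucleolar proteins 4 of 4 (median 0.95). Of the small-subunit factors 11 of 17 were called higher (median 0.73) and of the large-subunit factors 13 of 19 (median 0.78). No member of any step was called lower by the probe used for its gene.

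**Figure D1:**
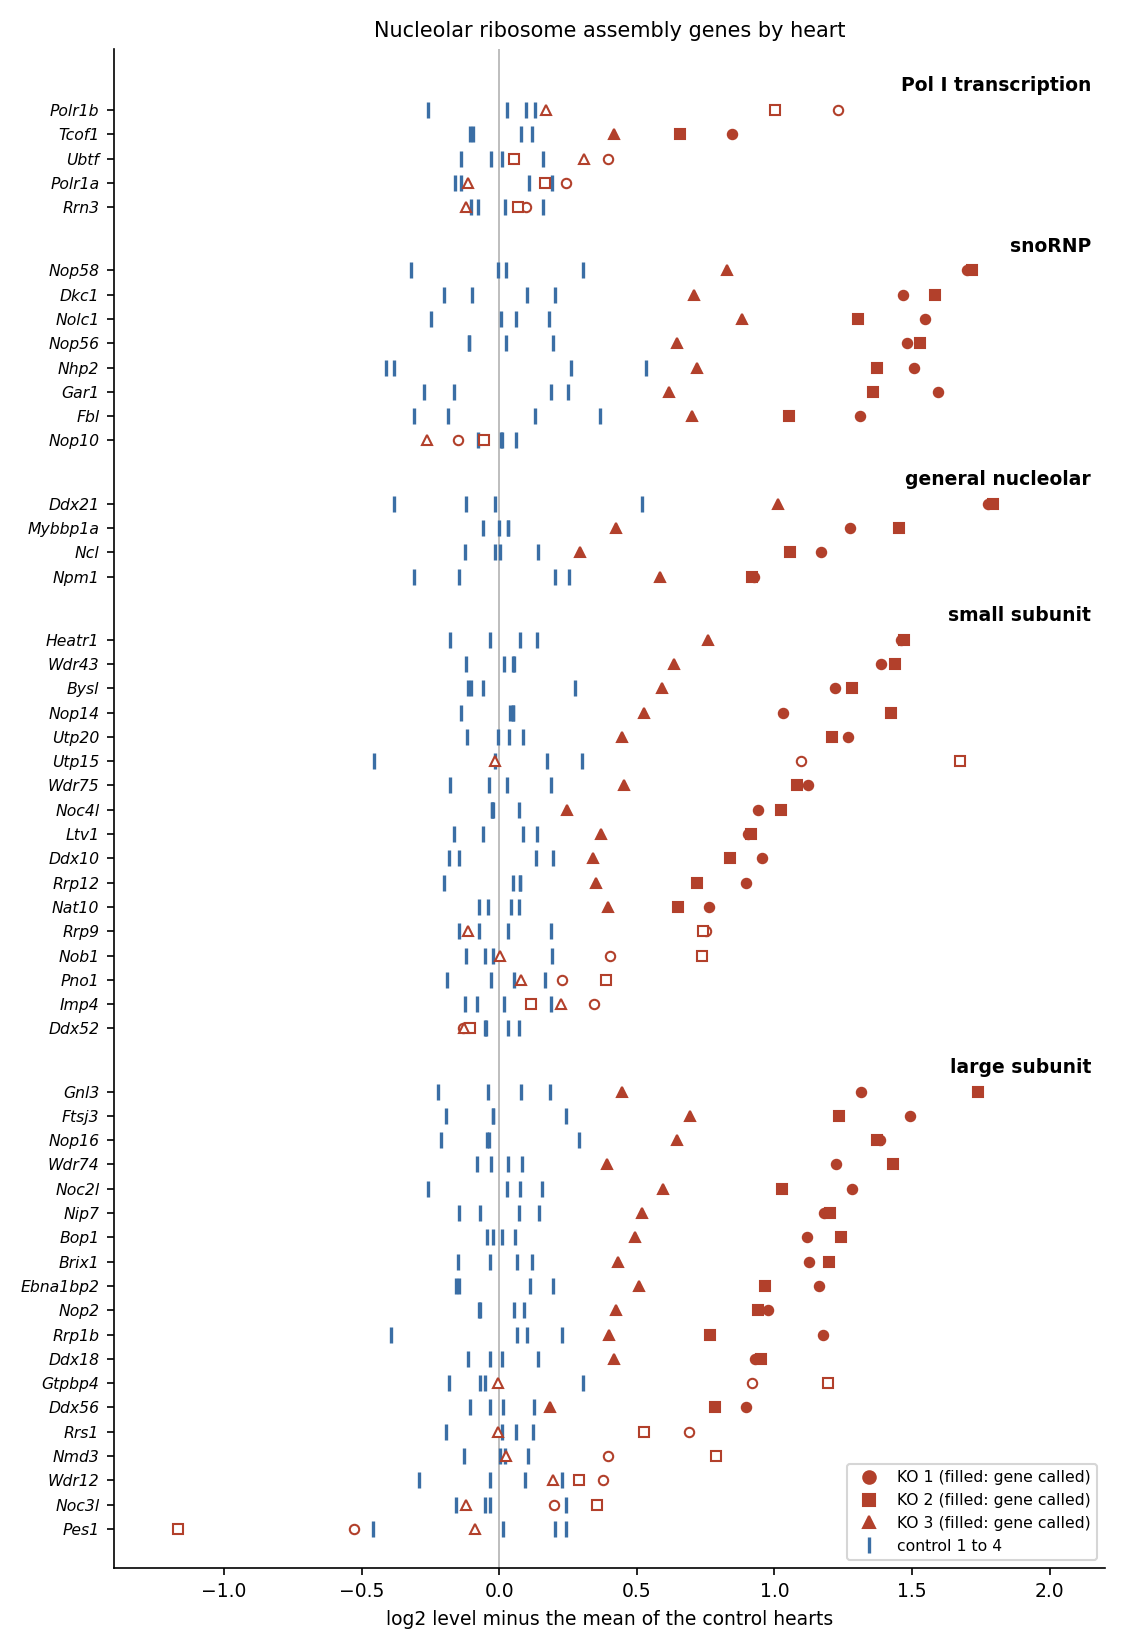
Each of the 53 tested genes by heart, grouped by step: the x axis is the log2 level minus the mean of the 4 control hearts, red symbols are KO hearts 1, 2 and 3 (filled where the gene was called) and blue ticks the control hearts. In 37 genes all red symbols lie to the right of every blue tick, and the triangle of KO heart 3 is the leftmost red symbol in 49 of 53.

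KO heart 3 was the lowest KO heart in 49 of the 53 genes (92.5%), where it was the lowest in 38.4% of all named genes. That share covers genes that were higher and genes that were lower in KO, so it is an unlike base for mostly higher genes. KO heart 3 also was the KO heart nearest the control mean in 48 of 53 (90.6%), against 52.6% of all named genes. Taken over the 53 genes, the median log2 level relative to the control mean was 1.09 in KO heart 1, 1.02 in KO heart 2 and 0.42 in KO heart 3, against 0.006, 0.09, 0.007 and -0.06 in control hearts 1 to 4. All 3 KO hearts therefore lay above all 4 control hearts on this median. The SD among KO hearts, with a median over the genes of 0.38, was larger than that among control hearts, with a median of 0.14.

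**Figure D2:**
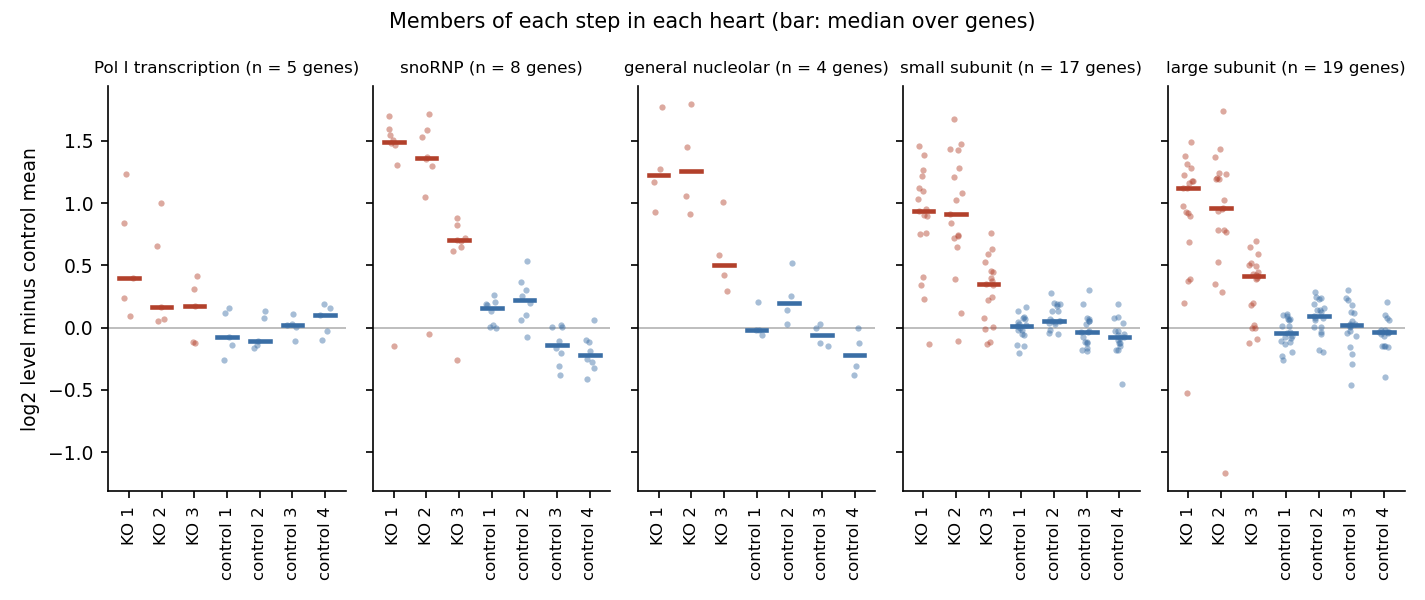
Genes of each step (points) in each heart, as log2 level minus the mean of the control hearts, with KO hearts in red, control hearts in blue and a bar at the median over genes. The snoRNP medians are 1.49, 1.36 and 0.70 in KO hearts 1 to 3, and the polymerase I medians are 0.40, 0.17 and 0.17.

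The calls rested on single hearts, and the differences less so. Without KO heart 1 limma called 0 of the 53 genes (35 higher at an unadjusted p under 0.05), without KO heart 2 it called 2 (36 unadjusted), and without KO heart 3 it called 43. Without control heart 4 it called 16, without control heart 3 24, without control heart 1 27 and without control heart 2 34. Of all features 0.309% were called without KO heart 1, 5.09% without KO heart 2 and 25.7% without KO heart 3, against 25.2% with all hearts. The shares of all features were 9.92% without control heart 4, 12.1% without control heart 3, 14.6% without control heart 1 and 31.2% without control heart 2. The median difference stayed between 0.68 and 1.06 in these fits, and the sign of the difference changed for 1 of the 53 genes, Rrn3.

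**Figure D3:**
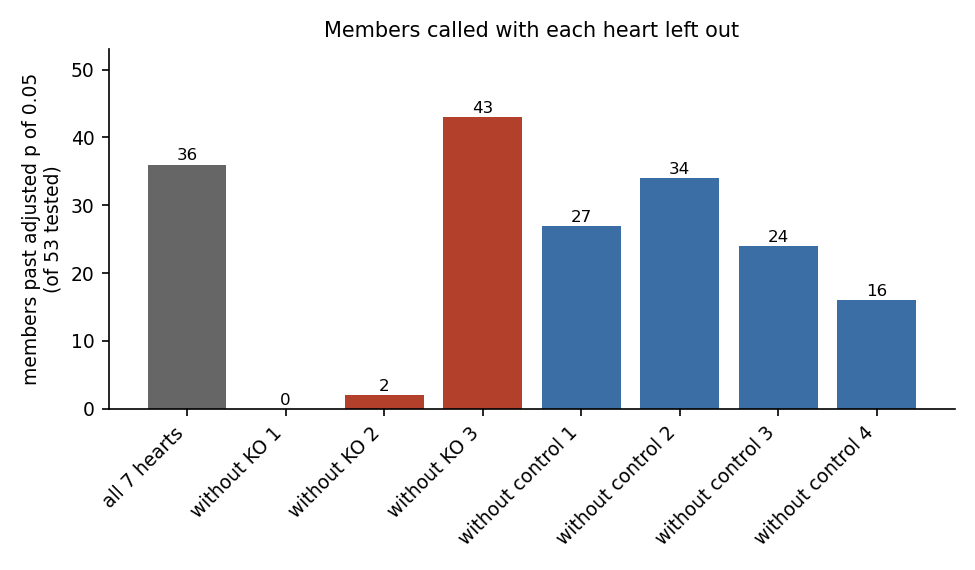
Number of the 53 tested genes past an adjusted p of 0.05 with all 7 hearts and with each heart left out (bars from 0; red, a KO heart left out; blue, a control heart left out). The count is 36 with all hearts and runs from 0 without KO heart 1 to 43 without KO heart 3.

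Differences were given separately for the rows of the slide. Row 1 of the slide held KO heart 1 with control hearts 1 and 2, and row 2 held KO hearts 2 and 3 with control hearts 3 and 4. With the slide row as a block 37 genes were called, all 36 called without it among them, with a median of 0.87, and 37.6% of all features were called. Within row 1 the median difference was 1.02 with 5 genes called, and within row 2 it was 0.76 with 0 called (limma, 27 higher at an unadjusted p under 0.05). Of all features 3.24% were called within row 1 and 6.54% within row 2. Control hearts 1 and 2 both lay above control hearts 3 and 4 in 21 of the 53 genes (39.6%, against 28.2% of named genes), among them 6 of the 8 snoRNP genes.

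The RNA polymerase I group changed least by its median. Polr1a, the catalytic subunit of the polymerase, read 2.85, 2.77 and 2.49 in KO hearts 1 to 3, against 2.47, 2.45, 2.72 and 2.80 in control hearts 1 to 4. Rrn3, the initiation factor that brings the polymerase to its promoter, read 2.94, 2.91 and 2.72 in KO hearts, against 2.77, 2.74, 2.87 and 3.01 in control hearts. The groups overlapped in both genes, with log2 differences of 0.10 ± 0.16 and 0.01 ± 0.13 (SE). Ubtf, which binds the ribosomal DNA and keeps it open, read 6.75, 6.40 and 6.66 in KO hearts, against 6.51, 6.21, 6.36 and 6.32 in control hearts, a difference of 0.25 ± 0.14 (SE) with KO heart 2 inside the control range. Its second probe differed by 0.19.

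Polr1b, the second-largest polymerase subunit, read 1.73, 1.50 and 0.67 in KO hearts, against 0.24, 0.63, 0.53 and 0.60 in control hearts. Its KO hearts lay above all controls, by little in KO heart 3, and the difference of 0.80 ± 0.25 (SE) was not called. It was called without KO heart 3, with normexp background correction and with the slide row as a block. Tcof1 encodes treacle, the nucleolar scaffold that holds the polymerase and UBTF, and was the called member of this group. It read 3.35, 3.17 and 2.93 in KO hearts, against 2.63, 2.59, 2.41 and 2.42 in control hearts, a difference of 0.64 ± 0.15 (SE), and its second probe differed by 0.62.

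The promoter of Rrn3 is shown because it holds the letters CACGTG, the E-box bound by MYC-type factors, at 2 places while its transcript level hardly differed. The stretch covers the 250 bases before the gene's start (chr16:13780449-13780698, GRCm38.p6, plus strand, RefSeq), with CACGTG in capitals.
Rrn3: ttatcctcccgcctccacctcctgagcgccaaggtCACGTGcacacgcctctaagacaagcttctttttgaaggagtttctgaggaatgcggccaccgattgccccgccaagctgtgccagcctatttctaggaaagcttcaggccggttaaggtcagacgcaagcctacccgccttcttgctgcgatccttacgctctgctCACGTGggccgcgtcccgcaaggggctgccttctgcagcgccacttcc

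Genes of the snoRNPs had the highest median of the 5 steps. In the box C/D particles, which methylate ribosomal RNA, Nop58 read 3.29, 3.31 and 2.42 in KO hearts, against 1.59, 1.90, 1.62 and 1.27 in control hearts. The scaffold protein it encodes pairs with NOP56, and the difference of 1.41 ± 0.25 (SE) was the largest of the group. Fbl, the methyltransferase fibrillarin, read 3.23, 2.97 and 2.62 in KO hearts, against 2.05, 2.28, 1.61 and 1.73 in control hearts, a difference of 1.02 ± 0.22. The groups did not overlap in either gene, nor in Nop56, with a difference of 1.22 for its brighter probe and 1.29 for its dimmer one. Snu13, also of these particles but tested with the other pathway genes, differed by 0.05 ± 0.12 (SE). Its groups overlapped and it was not called.

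Of the box H/ACA particles, which turn uridine into pseudouridine, 3 of 4 core genes were called. Dkc1, the pseudouridine synthase dyskerin, read 0.05, 0.17 and -0.71 in KO hearts, against -1.21, -1.32, -1.62 and -1.52 in control hearts, a difference of 1.25 ± 0.23 (SE), or 0.92 with normexp background correction. Gar1 and Nhp2, both core proteins of the same particle, differed by 1.19 and 1.20 without overlap. Nop10, the fourth core protein, read 4.15, 4.24 and 4.03 in KO hearts, against 4.30, 4.22, 4.30 and 4.36 in control hearts. Its groups overlapped and the difference was -0.16 ± 0.12, below 0 also within both slide rows (-0.11 and -0.19).

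Nolc1 encodes Nopp140, a chaperone of snoRNPs in the nucleolus and in Cajal bodies. Its brighter probe read 3.38, 3.13 and 2.71 in KO hearts, against 2.01, 1.89, 1.84 and 1.58 in control hearts, a difference of 1.24 ± 0.19 (SE). Its dimmer probe differed by 0.49 and was not called.

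The general nucleolar proteins were called in full. Ddx21, a helicase that acts at polymerase I and in snoRNA handling, read 2.54, 2.56 and 1.78 in KO hearts, against 0.75, 1.29, 0.64 and 0.38 in control hearts, with a difference of 1.53 ± 0.27 (SE) and of 0.99 for its second probe. Mybbp1a, a nucleolar partner of polymerase I, read 5.22, 5.40 and 4.37 in KO hearts, against 3.89, 3.98, 3.98 and 3.94 in control hearts. Its control hearts spread by an SD of 0.04, the narrowest of the 53 genes, and the difference was 1.05 ± 0.24. Ncl, which encodes nucleolin, read 5.84, 5.73 and 4.96 in KO hearts, against 4.65, 4.81, 4.67 and 4.54 in control hearts, a difference of 0.84 ± 0.22. Its dimmer probe differed by 0.56 and was not called.

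Npm1 encodes nucleophosmin, the main protein of the outer nucleolar layer where large subunits mature. It read 6.11, 6.10 and 5.76 in KO hearts, against 5.38, 5.43, 5.03 and 4.87 in control hearts, a difference of 0.81 ± 0.18 (SE). All 5 of its probes were called higher, with differences from 0.81 to 1.11.

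Small-subunit factors include the U3 processome, which assembles on the precursor as it is made, and later factors that finish the particle. Heatr1, a scaffold of the processome's UTP-A complex, read 3.88, 3.89 and 3.17 in KO hearts, against 2.49, 2.55, 2.38 and 2.24 in control hearts, a difference of 1.23 ± 0.20 (SE). Wdr43, of the same complex, read 2.25, 2.30 and 1.50 in KO hearts, against 0.88, 0.91, 0.91 and 0.74 in control hearts, a difference of 1.15 ± 0.21. The third UTP-A gene with a call, Wdr75, differed by 0.89. Utp15 of this complex differed by 0.92 ± 0.38 and was not called, with KO heart 3 inside the control range and 3 of 4 control arrays well above background.

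Bysl, an early factor that stays with the maturing small subunit, read 4.17, 4.23 and 3.54 in KO hearts, against 2.89, 3.22, 2.83 and 2.84 in control hearts, a difference of 1.03 ± 0.20 (SE). Nop14 and its partner Noc4l differed by 0.99 and 0.74, and Utp20 by 0.97. Ltv1 and Rrp12, which act in maturation and export of the particle, differed by 0.73 and 0.66. The helicase gene Ddx10 differed by 0.71, and Nat10, which acetylates the small-subunit rRNA, by 0.60. All of these were called without overlap between the groups.

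The 6 uncalled small-subunit genes included the pair that makes the last cut of the small-subunit rRNA. Nob1, the endonuclease, read 0.04, 0.37 and -0.36 in KO hearts, against -0.41, -0.38, -0.17 and -0.48 in control hearts, a difference of 0.38 ± 0.19 (SE) with KO heart 3 among the controls. Its partner Pno1 differed by 0.23 ± 0.14, and the U3-associated genes Rrp9 and Imp4 by 0.46 and 0.23. Ddx52, a helicase of early small-subunit assembly as known from its yeast counterpart, read 1.62, 1.64 and 1.62 in KO hearts, against 1.82, 1.70, 1.78 and 1.70 in control hearts. All its KO hearts were below all controls, with a difference of -0.12 ± 0.11.

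The promoter of Heatr1, the small-subunit gene with the largest difference, is shown as one with no CACGTG (chr13:12395125-12395374, GRCm38.p6, plus strand, RefSeq, the 250 bases before the start).
Heatr1: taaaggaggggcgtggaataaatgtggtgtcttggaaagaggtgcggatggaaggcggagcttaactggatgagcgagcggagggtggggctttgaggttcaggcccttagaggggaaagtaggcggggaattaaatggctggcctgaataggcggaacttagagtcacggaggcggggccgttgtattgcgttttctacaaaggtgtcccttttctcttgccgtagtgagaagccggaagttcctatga

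Large-subunit factors were called in 13 of 19 genes, with differences of 0.62 to 1.17. Gnl3 encodes nucleostemin, a nucleolar GTPase abundant in growing cells, and read 2.05, 2.47 and 1.18 in KO hearts, against 0.51, 0.81, 0.92 and 0.69 in control hearts, a difference of 1.17 ± 0.29 (SE). Ftsj3, a methyltransferase of pre-rRNA, read 1.97, 1.72 and 1.18 in KO hearts, against 0.29, 0.72, 0.46 and 0.46 in control hearts, a difference of 1.14 ± 0.21. Nop16, a factor of the early large subunit, read 2.60, 2.59 and 1.87 in KO hearts, against 1.17, 1.51, 1.01 and 1.18 in control hearts, a difference of 1.13 ± 0.22. The groups did not overlap in any of these 3 genes.

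Nop2, which methylates the large-subunit rRNA, read 4.08, 4.05 and 3.53 in KO hearts, against 3.03, 3.20, 3.16 and 3.04 in control hearts, a difference of 0.78 ± 0.17 (SE). The other called genes of this step were Wdr74, Nip7, Noc2l, Bop1, Ebna1bp2, Rrp1b, Ddx18, Ddx56 and Brix1, with differences from 0.62 to 1.02. Brix1 is counted by its brighter probe, while its dimmer probe was called lower. Of the NOC proteins, which move pre-ribosomes through the nucleus, Noc2l differed by 0.97 and was called, while its partner Noc3l differed by 0.14 ± 0.16 with overlapping groups.

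The upstream 250 bases of Nop2 (chr6:125131633-125131882, GRCm38.p6, plus strand, RefSeq) are shown because Nop2 was called and its promoter holds CACGTG, in capitals, ahead of the start.
Nop2: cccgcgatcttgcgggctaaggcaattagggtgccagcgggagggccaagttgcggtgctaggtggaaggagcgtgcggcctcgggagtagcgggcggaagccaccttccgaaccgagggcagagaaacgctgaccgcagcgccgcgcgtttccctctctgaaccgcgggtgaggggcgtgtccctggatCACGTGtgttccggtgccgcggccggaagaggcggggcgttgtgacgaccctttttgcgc

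The PeBoW complex, whose 3 proteins PES1, BOP1 and WDR12 act as a unit in large-subunit rRNA processing, had genes with unlike values. Bop1 differed by 0.95 ± 0.19 (SE) and was called, and Wdr12 by 0.29 ± 0.16 with overlapping groups. The brighter Pes1 probe read 2.01, 1.38 and 2.45 in KO hearts, against 2.55, 2.78, 2.08 and 2.74 in control hearts, a difference of -0.59 ± 0.28. The dimmer Pes1 probe read -0.97, -0.45 and -1.5 in KO hearts, against -1.97, -1.66, -1.5 and -1.45 in control hearts, a difference of 0.67. Neither probe was called, so the direction for Pes1 depends on the probe.

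Brix1, listed with the large-subunit factors, was the gene with probes called in opposite directions. The brighter probe read 2.94, 3.01 and 2.24 in KO hearts, against 1.88, 1.78, 1.93 and 1.66 in control hearts, a difference of 0.92 ± 0.20 (SE). The dimmer probe read -0.75, -0.93 and -0.71 in KO hearts, against -0.28, -0.34, -0.43 and -0.18 in control hearts, a difference of -0.49. Neither probe's groups overlapped, so no single direction can be given for Brix1. With the mean over its probes Brix1 was not called.

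Nmd3, the adaptor that carries the large subunit out of the nucleus, read 0.42, 0.82 and 0.05 in KO hearts, against -0.10, 0.03, 0.05 and 0.13 in control hearts. KO heart 3 lay among the controls and the difference was 0.40 ± 0.19 (SE). Rrs1 differed by 0.40 and the GTPase gene Gtpbp4 by 0.70, both with KO heart 3 inside the control range and neither called.

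Where a gene had several probes they mostly ran the same way. Of 13 genes with more than 1 kept probe, 7 had every kept probe called higher, 2 (Pes1 and Brix1) had probes of opposite sign, and 1 of those, Brix1, had opposite calls. Of the 3 kept probes of Ebna1bp2, 2 were called higher and the dimmest differed by 0.23 and was not called. The other 40 tested genes rested on 1 kept probe.

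**Figure D4:**
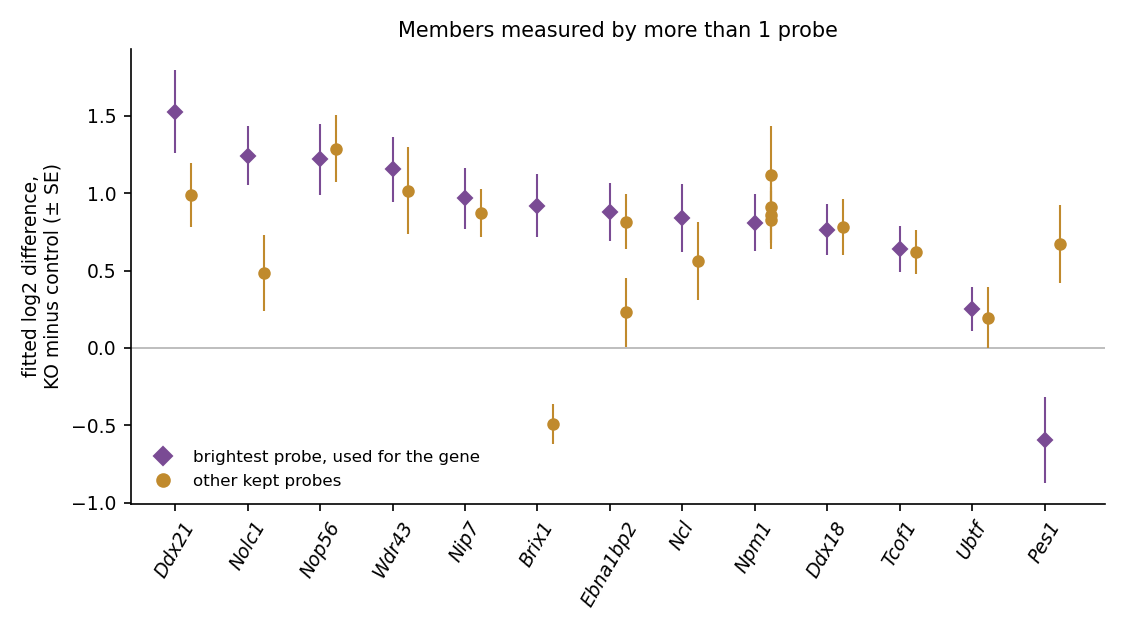
Fitted log2 difference, KO minus control, with its SE for every kept probe of the 13 genes measured by more than 1 probe; diamonds are the brightest probe, used for the gene, and circles the others. The probes of Npm1 lie close together, from 0.81 to 1.11, while those of Brix1 (0.92 and -0.49) and Pes1 (-0.59 and 0.67) lie on opposite sides of 0.

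Other genes of the same pathway, listed by role and not part of the 54, were tested in the same fit. Of 118 tested 54 were higher in KO and 0 lower (limma, adjusted p under 0.05), with a median log2 difference of 0.49. Of all features 10.2% were called higher and 15% lower, and these shares stand beside the counts of each list below. At an unadjusted p under 0.05 there were 70 pathway genes higher and 3 lower. The other 8 of 126 listed were Polr1f, Polr1g and Polr1h, whose symbols matched no probe, and Ttf1, Abt1, Nvl, Lyar and C1d, whose probes stayed too near background. Of 41 small-subunit factors 20 were higher and of 47 large-subunit factors 26, with medians of 0.52 and 0.58. Nol10 is among the 20, with the largest difference of these lists, 1.92. Its probe was well above background on 3 KO arrays and 0 control arrays, so it was tested only through the KO hearts. Of 7 polymerase I genes 2 were higher, of 10 other snoRNP genes 2, and of 13 exosome genes, whose products trim RNA from its end, 4. The medians of these were 0.46, 0.21 and 0.31. Like the 53, their median relative to the control mean was lowest in KO heart 3 among KO hearts, at 0.62, 0.70 and 0.23 in KO hearts 1 to 3. The count was 0 without KO heart 1 (56 higher unadjusted), 4 without KO heart 2 and 73 without KO heart 3. Of all features 0.309%, 5.09% and 25.7% were called in these fits. It was 17 without control heart 4, 26 without control heart 3 and 28 without control heart 1. Without control heart 2 it was 53, of which 52 were higher and 1 lower. The shares of all features were 9.92%, 12.1%, 14.6% and 31.2% without control hearts 4, 3, 1 and 2.

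The genes with the lowest p in each of these lists included Nifk, which encodes a nucleolar partner of Ki-67 acting on the large subunit. It read 4.73, 4.82 and 3.68 in KO hearts, against 2.77, 3.09, 2.72 and 2.71 in control hearts, a difference of 1.58 ± 0.28 (SE, limma, adjusted p = 0.0139). Eif6, which keeps the new large subunit from joining the small one, read 4.99, 5.19 and 4.25 in KO hearts, against 3.27, 3.73, 3.19 and 3.17 in control hearts, a difference of 1.47 ± 0.25 (adjusted p = 0.0131). Among small-subunit genes Tsr1 and Wdr3 rose by 1.32 ± 0.26 (limma, adjusted p = 0.0163) and 0.98 ± 0.19 (adjusted p = 0.0163).

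In the remaining lists Exosc6, a subunit of the exosome ring, rose by 1.31 ± 0.21 (SE, limma, adjusted p = 0.0125) and Exosc1 by 0.73 ± 0.16 (0.0206). Taf1d, a subunit of the polymerase I selectivity factor, rose by 1.24 ± 0.27 (0.0192), and Polr1d, a subunit shared by polymerases I and III, by 0.63 ± 0.18 (0.0372). Shq1, the assembly chaperone of dyskerin, rose by 0.78 ± 0.14 (0.0148) and the ATPase gene Ruvbl1 by 0.60 ± 0.16 (0.0303). The KO hearts lay above all controls in each of these 6 genes and in the 4 before them, as in 17.6% of all features. These genes were picked for the lowest p among called genes, so their separation serves as no support.

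Myc encodes the transcription factor best known for driving ribosome production, and its family was measured as part of the pathway. Myc read 1.87, 1.71 and 0.41 in KO hearts, against -1.42, -0.41, -0.81 and -2.74 in control hearts. KO hearts lay above all controls, with KO heart 3 again the lowest of them, and the difference was 2.68 ± 0.58 on the log2 scale (SE, limma, adjusted p = 0.0192). Mxd1, which encodes a repressor that competes with MYC for MAX, read 0.59, 0.78 and -0.25 in KO hearts, against -0.76, -0.79, -0.74 and -0.88 in control hearts, a difference of 1.16 ± 0.24 (0.0177). Mycn differed by -1.02 ± 0.37 (0.078) and Mxd3 by 1.17 ± 1.02 (0.406), neither past the threshold. The Mxd3 difference was 1.84 without control heart 2, 0.56 without control heart 3 and 1.8 without KO heart 2. The differences of Max, Mnt, Mlx and Mxd4 lay between -0.20 and 0.18 and did not pass, while Mycl and Mxi1 stayed too near background. The difference of Max was -0.01, and 0.08 with median centring.

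**Figure D5:**
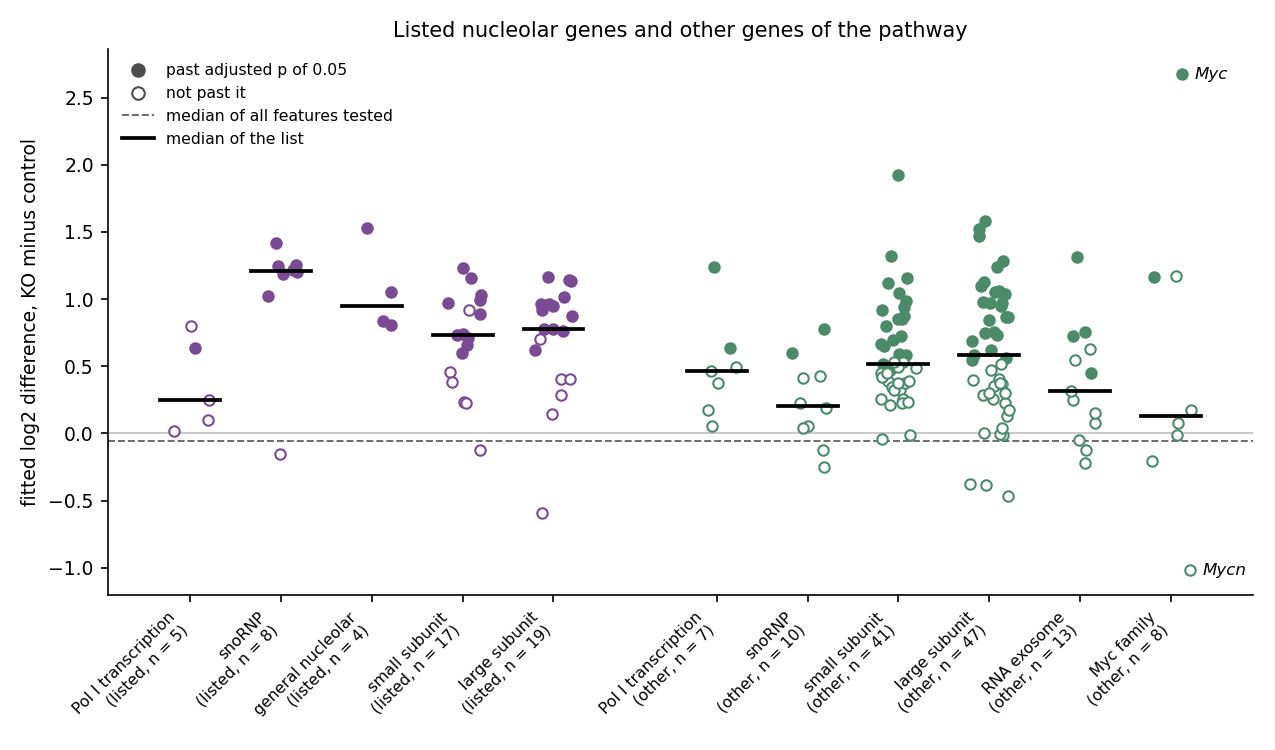
Fitted log2 differences, KO minus control, of the listed nucleolar genes by step (purple) and of other genes of the pathway by list (green); filled points passed an adjusted p of 0.05, short black bars are list medians and the dashed line the median of all features at -0.06. The listed snoRNP genes have a median of 1.21, and Myc stands at 2.68.

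Promoters were compared by letters alone. Of the 54 genes 48 had a promoter entry of 250 bases before to 50 after the start in RefSeq (GRCm38.p6), and both strands were searched for 11 short motifs. The other 6 genes were Rrp12, Rrs1, Npm1, Fbl, Tcof1 and Bop1. The letters CACGTG, which read the same on both strands, were in 11 of the 48 (22.9%), against 11.4% of the 10898 tested genes with an entry and 8.09% of all 27025 genes. They were in 5 of the 31 called genes with an entry and in 5 of the 16 uncalled ones, the other being the untested Utp18. TATAAA was in 2 of 48 (4.17%), against 10.0% of tested genes, CCGGAAG in 15 (31.2%, against 18.2%) and CACGCG in 16 (33.3%, against 18.8%). GGGCGG was in 36 of 48, against 65.3% of tested genes, CATGTG in 11 (22.9%, against 10.98%), ACTACA in 11 (22.9%, against 11.9%) and GAAGTG in 21 (43.8%, against 24.8%). GCCATCTTG was in 0 of 48, against 2.46%, as were the ZBTB33-type palindrome (1.03% of tested genes) and the ZNF143-type motif (0.587%), which begins with ACTACA. Genes share promoter composition, no test was run, and a match is not a bound site.

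The 30 bases around each CACGTG (in capitals) are shown for all 11 genes, since they let called and uncalled genes be set side by side. Wdr43, Utp20, Mybbp1a, Nop2 and Ltv1 were called higher, Nmd3, Pno1, Imp4, Rrn3 and Pes1 were not called, and Utp18 was not tested. Coordinates are GRCm38.p6, and each is written along its gene's strand.
Wdr43, chr17:71616220-71616249, plus strand: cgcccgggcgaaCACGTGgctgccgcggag
Utp20, chr10:88826765-88826794, minus strand: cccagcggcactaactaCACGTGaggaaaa
Mybbp1a, chr11:72441347-72441376, plus strand: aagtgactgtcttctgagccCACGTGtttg
Nop2, chr6:125131811-125131840, plus strand: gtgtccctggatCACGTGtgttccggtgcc
Ltv1, chr10:13193092-13193121, minus strand: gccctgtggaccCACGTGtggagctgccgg
Nmd3, chr3:69721929-69721958, plus strand: cgccccttgctaCACGTGtattctttgacc
Pno1, chr11:17211540-17211569, minus strand: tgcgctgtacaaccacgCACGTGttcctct
Imp4, chr1:34439696-34439725, plus strand: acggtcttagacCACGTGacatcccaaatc
Rrn3, chr16:13780472-13780501, plus strand: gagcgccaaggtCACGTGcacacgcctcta
Rrn3, chr16:13780639-13780668, plus strand: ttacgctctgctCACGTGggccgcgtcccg
Pes1, chr11:3963965-3963994, plus strand: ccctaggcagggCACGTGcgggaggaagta
Utp18, chr11:93885769-93885798, minus strand: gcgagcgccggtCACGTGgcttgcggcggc
Counted from the gene's start, the first base of the motif lay at -60 in Nop2 and at 18, 38, 41 and 29 in Wdr43, Utp20, Mybbp1a and Ltv1. It lay at -215 and -48 in Rrn3, at -114 in Nmd3, at -121 in Imp4, at 38 in Pno1, at 3 in Pes1 and at -20 in Utp18. Both called and uncalled genes thus held it on either side of the start.

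Markers of other cell types were measured in the same hearts. Of 10 measured neutrophil markers 8 were higher in KO and 0 lower (8 and 0 also unadjusted). Of all features 10.2% were called higher and 15% lower. Ngp, Ltf, Retnlg and Cd177 were not well above background on enough arrays. Among the 8, Cxcr2, Mmp8 and Mmp9 were well above background on 0 control arrays, Il1r2 on 1, and Fpr1 and Fpr2 on 2. These genes passed the filter only through the KO hearts, so their calls serve as no support. The median of the 10 markers relative to the control mean rests partly on control levels near background. It was 3.33, 3.31 and 1.70 in KO hearts 1 to 3, against 0.02, 0.66, -0.28 and -0.30 in control hearts 1 to 4. KO heart 3 was again the lowest KO heart. Summed over the list, linear levels relative to the 75th percentile were 103 to 180 in KO and 114 to 177 in control hearts. Csf3r, the brightest probe of the list, was the 1 marker of the 10 with a log2 difference below 0. It differed by -0.23 with overlapping groups. Without Csf3r the sum was 5.56 to 33.9 in KO hearts and 1.56 to 2.67 in control hearts. The part of these cells in the levels of the nucleolar genes was not tested.

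Of 14 monocyte and macrophage markers 4 were higher and 0 lower (7 and 1 unadjusted), and KO heart 3 had the highest median, at 0.31, 0.38 and 1.35 in KO hearts 1 to 3, against 0.32, 0.58, -0.36 and -0.42 in control hearts 1 to 4. KO hearts 1 and 2 lay within the range of the controls. Their summed level was 130 to 197 in KO hearts and 122 to 140 in control hearts. Of 12 cardiomyocyte markers 7 were lower, with a summed level of 4897 to 5780 in KO hearts and 6141 to 8931 in control hearts. Of 12 fibroblast markers 1 was higher and 3 lower (summed level 349.9 to 772 in KO hearts and 437 to 705 in control hearts), and of 12 endothelial markers 1 was higher and 1 lower (144 to 183 in KO hearts and 162 to 228 in control hearts). Beside the counts of these 4 lists, 10.2% of all features were called higher and 15% lower, and nothing is read from the fibroblast and endothelial counts. The part of these cells was not tested either.

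Proliferation genes did not follow the same hearts. Of 11 measured 0 passed in limma in either direction (0 also at an unadjusted p under 0.05). Their summed level was 8.36 to 33.9 in KO hearts and 3.90 to 32.3 in control hearts. All 11 log2 differences were above 0, from 0.43 to 1.36, and the groups overlapped in all 11. The median of these genes relative to the control mean was 1.6, -0.24 and 1.79 in KO hearts 1 to 3. It was 0.92, 1.78, -1.47 and -1.23 in control hearts 1 to 4. Control hearts 1 and 2, of slide row 1, thus lay above control hearts 3 and 4, of row 2. With this spread among controls, the 0 calls do not show that these genes were unchanged. KO heart 2, high in the nucleolar genes, was the lowest KO heart here, and KO heart 3 was the highest.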

How the data were processed

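The deposited files give a spot intensity for 62976 spots on every array, extracted by the authors with Agilent Feature Extraction 11.0.1.1, per the file headers. The processed signal, an intensity already background-subtracted by that software per the file headers, was log2-transformed and expressed relative to the array's 75th percentile. Controls and outlier spots were dropped, and spots of 1 probe were averaged. A probe was used when 3 or more arrays of either group rated it well above background (26576 of 55681). Probes were named through their RefSeq accession, using the GRCm38 gene table, and 28026 of all 55681 probes matched 1 symbol. Each gene was represented by its kept probe with the highest mean. The 3 KO and 4 control hearts were compared in limma 3.58.1 (R 4.3.3), p-values were adjusted by Benjamini-Hochberg across the 22344 features, a gene was called below 0.05, and the code was tested on simulated data. The authors' deposited value table holds log2 values centred on each probe's median. Its columns have the same mean and medians of 0, apart from 0.0079 in control heart 4 and -0.0021 in KO heart 2, and its scale between arrays is not stated; direction was read from its correlation with the scanner values (0.986 to 0.998). It served as an alternative.

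The labels name separate hearts, taken as separate animals. The design text speaks of 4 hearts per group; the other KO heart was not analysed here. The members, gene lists, motifs and rules were chosen with earlier results of these data known. Given heart by heart were the 3 largest differences and the lowest of each step, landmark genes, and genes with opposite probe calls. For the other pathway genes, up to 2 with the lowest p per list and direction were named, with the measured Myc family. Pes1 and other uncalled members were named to account for all members. Alternatives were quantile and median normalization, normexp (offset 50, on the median spot signal), other filters, means over probes, other variance models, blocks, each heart left out and a threshold of 0.1. The fits within slide rows were added after seeing the data.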

Additional observations from a re-analysis of the deposited data

Results flagged for a closer look

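Among 71 genes examined, 4 had a control heart far from the other 3 by Dixon's criterion at the 95% level, and chance alone flags about 1 in 20. Nop14 read -0.027 in control heart 1, against 0.15 to 0.16 in the other control hearts. Rrp12 read 0.044 in control heart 1, with the others at 0.29 to 0.32. Noc4l read 0.66 in control heart 2, with the others at 0.57. Bysl read 3.22 in control heart 2, with the others at 2.83 to 2.89. In each of the 4 genes all KO hearts lay above this heart too.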

How the results depend on the processing

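The 36 calls among the 53 tested genes were all kept under quantile normalization, median centring, normexp, the authors' value table, a filter on every array, trend and robust variance, array weights, the slide row block and a threshold of 0.1, with counts of 36 to 47 where 22.1% to 53.7% of all features were called. The 47, with array weights, were 46 higher and 1 lower, Pes1. The mean over probes kept 34. Without a filter, which adds dim probes to the adjustment, 9 of the 54 genes and 5 of the other pathway genes were called, and 2.90% of all features. Within slide rows 1 and 2 the counts were 5 and 0, and 9 and 0 for the other pathway genes, with fewer hearts in each fit and 3.24% and 6.54% of all features called. Array weights called 93 other pathway genes, 89 higher and 4 lower, and 53.7% of all features. The replicate numbers paired no hearts (correlations of deviations 0.18, -0.22 and -0.20), and with a replicate block limma called 0 genes of either set (37 and 60 higher unadjusted) and 0.0403% of all features, with a median of 0.77. Leaving out 1 heart gave 0 to 43 and 0 to 73 calls and medians of 0.68 to 1.06. Signs turned only for genes near 0 or with discordant probes. Max was at 0.016 with quantile normalization, 0.077 with median centring, 0.0093 with normexp, 0.023 in the authors' value table, 0.032 with array weights, 0.026 with the replicate block, 0.20 within row 1 and -0.13 to 0.051 with 1 heart left out. Rrn3 was at -0.027 to 0.082 with 1 heart left out and at -0.12 within row 2, where Polr1a was at -0.12 and Mnt at -0.0073. Pes1 was at 0.038 with the mean over probes. Where no cause is named, the cause was not tested. Utp18 and Utp15 lay near background, which limits them.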
